A study of Rattus with 9 samples.

Results

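Sterol and fatty acid synthesis genes of rat thoracic dorsal root ganglia are described here: 31 of the 17378 genes with a deposited read count, of which 18 encode enzymes of cholesterol synthesis, 9 encode enzymes of fatty acid synthesis and 4 encode regulators or a sterol carrier. Members were found by gene symbol in the count and RPKM tables, and all 31 passed the filter on low counts that left 11711 genes. The genes are a list of pathway symbols chosen by hand with earlier fold changes and p-values of infarction against sham in these libraries known, Lss and Fasn being among the lower genes with the smallest p. So every value of the infarction contrast below is a description of the chosen genes and carries no test of them. Ganglia came from SD rats with no genetic change named in the labels. In 5 rats the coronary artery had been ligated to cause a myocardial infarction (MI), 4 rats had sham surgery, and tissue was taken 8 weeks later. Each library came from 1 rat. The number of ganglia per rat was not found in the labels. The surgery labels are the only difference stated between the groups.

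Cells make cholesterol from acetyl-CoA through mevalonate, farnesyl diphosphate, squalene and lanosterol, and make fatty acids from the same acetyl-CoA through malonyl-CoA. Sterol regulatory element-binding proteins (SREBPs), transcription factors held in the endoplasmic reticulum while sterol is plentiful, are released when sterol falls and raise the transcription of both pathways. The SREBP encoded by Srebf2 acts mainly on sterol genes, and the main product of Srebf1 acts mainly on fatty acid genes. Peripheral nerve draws on local lipid synthesis for myelin, which Schwann cells lay down, and sensory neurons need sterols and fatty acids for long axons. The ganglion also holds satellite glia, macrophages and vessels and can carry some fat, so a bulk value cannot tell fewer cells of a type from less RNA per cell.

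Libraries held 5656582 to 6861355 counts, and the members took 0.563% to 0.663% of the counts of a library. Markers of sensory neurons, the tissue's defining cells, summed to 38208 to 40626 CPM (counts scaled to a common library total) in sham and 37880 to 43733 CPM in MI libraries. Liver markers, checked because liver is another site of strong sterol synthesis, summed to 0.158 to 10.1 CPM in sham and 0.471 to 8.21 CPM in MI libraries. The maxima were in Sham 2, with Alb at 8.06 CPM, and in MI 2, with Ttr at 7.72 CPM. No other library exceeded 1.13 CPM. Of the 10 adipocyte markers, Pnpla2, Lipe and Lpl were highest, with mean levels of 53.1, 27.1 and 15.1 CPM in sham. Their MI means were 51.1, 28.0 and 17.1 CPM. Cfd had means of 7.26 CPM in sham and 10.2 CPM in MI, Fabp4 2.81 and 4.94 CPM, and Adipoq 1.55 and 2.63 CPM. Plin1, Cidec, Lep and Retn had means of at most 0.436 CPM in sham and 0.801 CPM in MI.

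In sham ganglia the most abundant member per gene length was Hmgcs1, which makes HMG-CoA, the precursor of mevalonate. Its level was 240.2 ± 8.90 RPKM (reads per kilobase of gene scaled to total reads; SD, n = 4), higher than that of 98.8% of tested genes. Fdps, which makes farnesyl diphosphate, followed at 152.3 ± 5.12 RPKM (SD, n = 4). Msmo1, a methylsterol oxidase, stood at 91.3 ± 0.849 RPKM and Cyp51, the lanosterol demethylase, at 91.0 ± 3.66 RPKM (SD, n = 4 each), and the ranges of this pair overlapped. The 4 sham libraries did not overlap between Hmgcs1 and Fdps, nor between Fdps and Msmo1.

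Among the other enzymes between acetyl-CoA and lanosterol, Sqle, the squalene epoxidase that limits the rate of the later pathway, stood at 63.5 ± 3.84 RPKM, and Fdft1, the squalene synthase, at 53.8 ± 1.37 RPKM (SD, n = 4 each). The mevalonate kinase genes differed, with Pmvk, which adds the second phosphate, at 43.1 ± 2.52 RPKM and Mvk, which adds the first, at 14.3 ± 1.16 RPKM. Idi1, the isomerase of the isoprene unit, had 27.8 ± 1.65 RPKM, Acat2, the thiolase at the entry, 23.6 ± 2.45 RPKM, Lss, which closes the sterol rings, 19.8 ± 1.55 RPKM, and Mvd, the mevalonate decarboxylase, 15.7 ± 1.85 RPKM. These were sham levels with SD over 4 rats.

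After lanosterol, sham levels were 39.7 ± 1.60 RPKM for the desaturase gene Sc5d and 35.0 ± 1.22 RPKM for Nsdhl, which removes carbon groups from the sterol. The isomerase gene Ebp had 15.6 ± 0.830 RPKM, the reductase gene Tm7sf2 14.2 ± 1.38 RPKM and Dhcr7, which makes cholesterol in the last step of a branch, 11.7 ± 1.23 RPKM. Hsd17b7, a ketosterol reductase, was the lowest of the 31 at 4.79 ± 0.540 RPKM (SD, n = 4) and did not overlap with the next gene above it. Each step of the pathway from Acat2 to Dhcr7 that the list covers was detected, over a span from 4.79 to 240.2 RPKM.

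Among fatty acid genes, Acly, which makes cytosolic acetyl-CoA from citrate, was highest in sham ganglia at 75.9 ± 2.18 RPKM (SD, n = 4). The polyunsaturated fatty acid desaturase genes Fads1 and Fads2 had 48.1 ± 3.37 and 40.5 ± 2.38 RPKM, the desaturase gene Scd 42.4 ± 3.46 RPKM, and Me1, a source of NADPH, 41.6 ± 1.62 RPKM. Fasn, the fatty acid synthase, had 29.5 ± 2.19 RPKM and Acss2, which makes acetyl-CoA from acetate, 25.98 ± 0.691 RPKM. Acaca, the acetyl-CoA carboxylase that commits carbon to the pathway, and the elongase gene Elovl6 were lowest, at 12.4 ± 0.532 and 12.1 ± 1.12 RPKM. The median sham level was 40.5 RPKM over the fatty acid genes and 31.4 RPKM over the sterol genes, against 8.11 RPKM over all tested genes.

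Scd has a close paralogue, Scd2, which is outside the list and stood at 541.0 ± 40.0 RPKM in sham ganglia (SD, n = 4). Reads shared by the pair could have been split by the counting, so the level of Scd is uncertain. Of the regulators, Insig1, which encodes the protein that holds SREBPs in the endoplasmic reticulum and is itself an SREBP target, had 56.6 ± 3.68 RPKM. Srebf2 had 18.5 ± 0.976 RPKM, Srebf1 9.60 ± 0.818 RPKM and Stard4, a cytosolic sterol carrier, 9.25 ± 1.04 RPKM (SD, n = 4 each), and the last pair overlapped. Over all 31 genes, 22 of the 30 neighbouring pairs in the order of sham levels had overlapping ranges, and the remaining 8 pairs did not overlap.

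**Figure D1:**
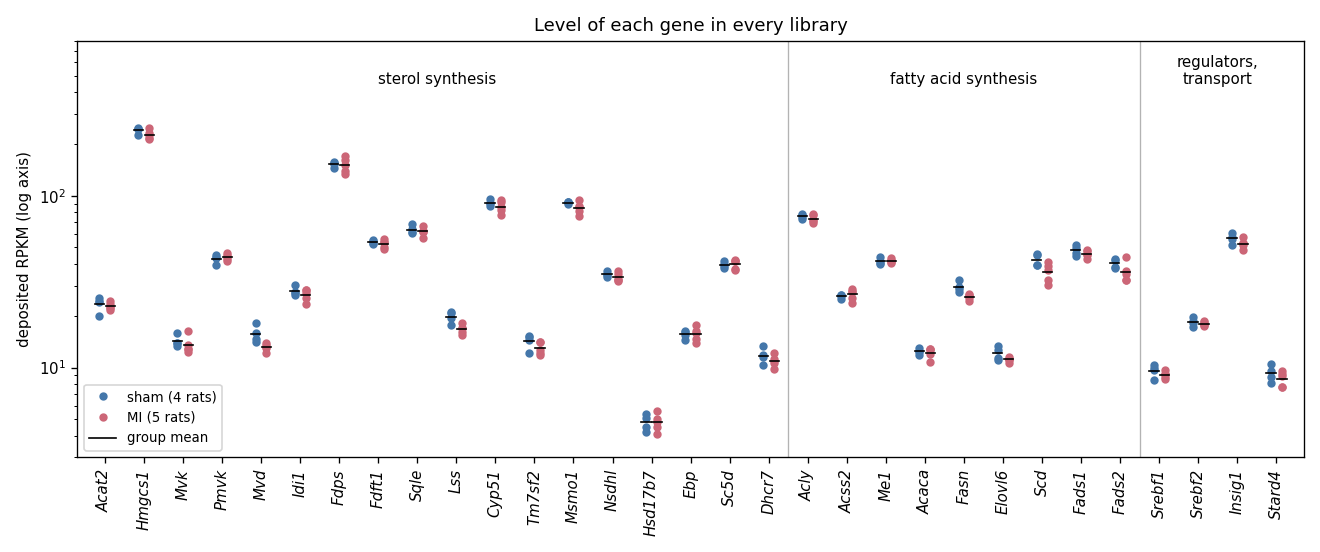
Deposited RPKM (log axis) of the 31 genes in each of 4 sham (blue) and 5 MI (red) libraries, with black bars for group means, in pathway order. Hmgcs1 and Fdps stand above the other sterol genes, Acly leads the fatty acid genes, and Hsd17b7 is lowest at 4.79 RPKM in sham.

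After infarction, 25 of the 31 genes had a lower fitted mean than in sham ganglia, against 49.2% of all tested genes, and none of the 31 passed the threshold of an adjusted p of 0.05 by the edgeR likelihood-ratio test. Across all genes that test called 0.0171%. Differences were small: the median log2 fold change of MI over sham was -0.073 over the 31 genes, with values from -0.26 for Mvd to 0.034 for Acss2, and 0.0017 over all tested genes. At an unadjusted p under 0.05 by that test, 4 members were lower in MI, namely Lss, Mvd, Fasn and Scd, and none was higher. Of all tested genes 2.27% were lower at that p, and 543 of 11711 had such a p in either direction. The quasi-likelihood test called 0 members and 0% of all genes. It gave the same 4 members an unadjusted p under 0.05, and 602 of the 11711 tested genes in either direction. DESeq2 called 0 members and 2 of all genes, and limma-voom called 0 members and 0 of all genes. Every MI library lay below every sham library for 2 of the 31 genes, Mvd and Fasn, where 0.905% of all tested genes did so. Every MI library lay above every sham library for 0 of the 31, where 0.837% of all tested genes did so. A fit with 1 common dispersion for all genes called 0 members and 0.598% of all genes. Since the contrast had a part in the choice of the genes, nothing is read from these shares.

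**Figure D2:**
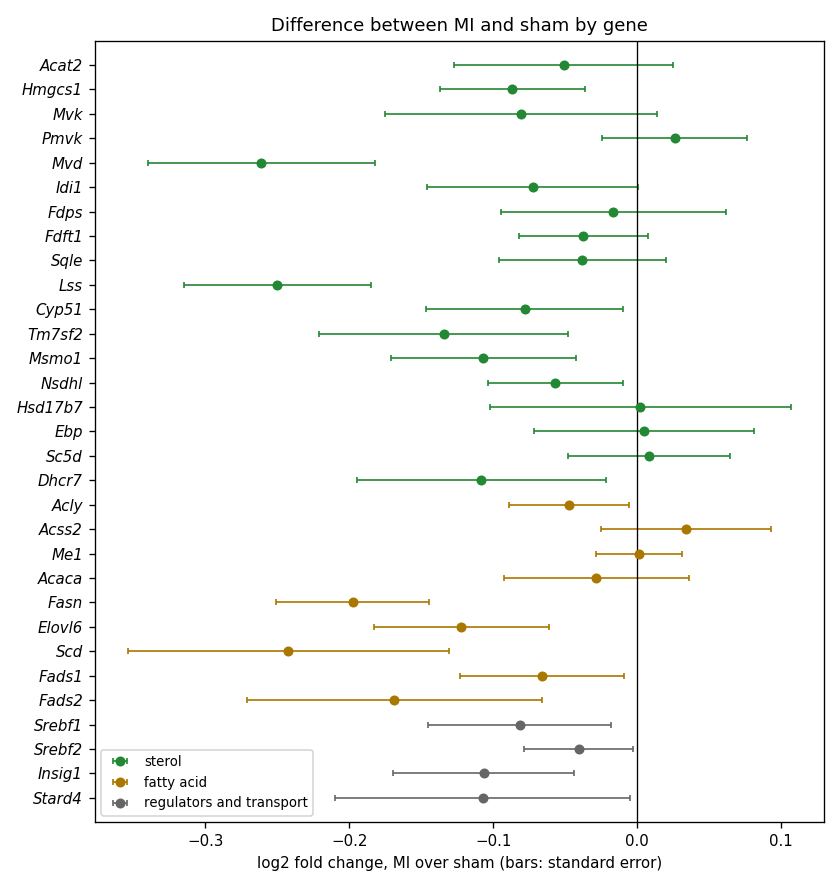
Log2 fold change of MI over sham for each of the 31 genes with its standard error (horizontal bars), in pathway order from top to bottom and coloured by pathway. Lss and Mvd among sterol genes and Fasn and Scd among fatty acid genes lie farthest to the left, between -0.20 and -0.26, and 6 genes lie at or just right of 0.

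In the sterol pathway 14 of 18 genes were lower in MI, with a median log2 fold change of -0.065. Lss, the cyclase that makes lanosterol, stood at 84.6, 99.1, 91.0 and 98.9 CPM in Sham 1 to Sham 4 and at 79.7, 74.9, 80.0, 73.1 and 85.2 CPM in MI 1 to MI 5. Of the MI rats 4 lay below all sham rats, and MI 5 lay just above Sham 1. The log2 fold change was -0.25 (SE 0.065), a fold of 0.841, and the adjusted p over all genes was 0.372 by the likelihood-ratio test.

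Mvd, the decarboxylase that ends the mevalonate steps, stood at 39.5, 43.6, 50.6 and 40.6 CPM in Sham 1 to Sham 4 and at 33.8, 36.0, 36.1, 39.0 and 37.3 CPM in MI 1 to MI 5. The groups did not overlap, but the highest MI rat, MI 4, and the lowest sham rat, Sham 1, were close, and Sham 3 stood above the other sham rats. The log2 fold change was -0.26 (SE 0.079), with an adjusted p of 0.691 by the likelihood-ratio test, and it was -0.18 without Sham 3.

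Msmo1 had 261.0, 259.0, 254.9 and 260.8 CPM in Sham 1 to Sham 4, and 229.5, 212.9, 243.8, 269.1 and 246.8 CPM in MI 1 to MI 5. Sham rats lay within a narrow band, and MI rats lay on both sides of it, with MI 4 above every sham rat. Its log2 fold change was -0.11 (SE 0.064). Hmgcs1, the most abundant gene of the list, had 1238, 1312, 1313 and 1340 CPM in Sham 1 to Sham 4 and 1176, 1144, 1216, 1346 and 1243 CPM in MI 1 to MI 5. The groups overlapped, with MI 4 above all sham rats, and the log2 fold change was -0.087 (SE 0.050).

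The other lower sterol genes had log2 fold changes from -0.13 for Tm7sf2 (SE 0.087) to -0.016 for Fdps (SE 0.078), and all of them overlapped between groups. Dhcr7 had -0.11 (SE 0.087), Mvk -0.080 (SE 0.094), Cyp51 -0.078 (SE 0.068), Idi1 -0.073 (SE 0.073) and Nsdhl -0.057 (SE 0.047). Acat2 had -0.051 (SE 0.076), Sqle -0.038 (SE 0.058) and Fdft1 -0.037 (SE 0.045). The remaining 4 genes lay within 1 SE of 0 on the higher side, with Pmvk at 0.026 (SE 0.051), Sc5d at 0.0081 (SE 0.056), Ebp at 0.0049 (SE 0.076) and Hsd17b7 at 0.0022 (SE 0.105).

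Among fatty acid genes 7 of 9 were lower in MI, with a median log2 fold change of -0.066. Fasn, which builds palmitate from malonyl-CoA, had 437.5, 488.1, 443.4 and 415.4 CPM in Sham 1 to Sham 4 and 395.4, 363.2, 381.7, 400.7 and 404.2 CPM in MI 1 to MI 5. All 5 MI rats lay below all 4 sham rats, with a gap between MI 5 and Sham 4. The log2 fold change was -0.20 (SE 0.053), a fold of 0.872, with an adjusted p of 0.442 by the likelihood-ratio test.

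Scd, which puts the first double bond into saturated fatty acids, had 341.3, 330.9, 292.0 and 292.6 CPM in Sham 1 to Sham 4 and 237.5, 221.6, 272.7, 290.9 and 305.1 CPM in MI 1 to MI 5. MI 1 and MI 2 were low, while MI 5 lay above Sham 3 and Sham 4. The log2 fold change was -0.24 (SE 0.11), with an adjusted p of 0.834 by the likelihood-ratio test. Its paralogue Scd2 had 4521 ± 331 CPM in sham (SD, n = 4) and 4121 ± 283 CPM in MI rats (SD, n = 5), a log2 fold change of -0.13 (SE 0.068).

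Fads2 had 115.4, 101.4, 103.5 and 113.6 CPM in Sham 1 to Sham 4 and 86.9, 85.1, 94.4, 97.9 and 117.6 CPM in MI 1 to MI 5. The first 4 MI rats lay below all sham rats and MI 5 lay above them all; the log2 fold change was -0.17 (SE 0.103) and -0.25 without MI 5. Acly, the most abundant fatty acid gene, had 540.9, 551.7, 556.7 and 527.4 CPM in Sham 1 to Sham 4 and 549.2, 514.0, 495.4, 563.0 and 511.7 CPM in MI 1 to MI 5. Its groups overlapped, with a log2 fold change of -0.047 (SE 0.042). Elovl6 had a log2 fold change of -0.12 (SE 0.061), Fads1 -0.066 (SE 0.057), Acaca -0.028 (SE 0.064), Me1 0.0014 (SE 0.030) and Acss2 0.034 (SE 0.059).

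The regulators all had slightly lower means in MI and overlapped between groups. Srebf1 had 71.1, 75.9, 62.1 and 72.8 CPM in Sham 1 to Sham 4 and 65.0, 66.5, 63.0, 67.4 and 70.8 CPM in MI 1 to MI 5. Sham 3 was the lowest of all 9 rats, below every MI rat, and the log2 fold change was -0.082 (SE 0.063). Srebf2 had 144.3, 161.3, 154.9 and 151.2 CPM in Sham 1 to Sham 4 and 147.4, 144.7, 155.2, 152.4 and 144.2 CPM in MI 1 to MI 5. The MI values lay almost wholly inside the sham range, with a log2 fold change of -0.041 (SE 0.038).

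Insig1 had 209.7, 227.2, 243.7 and 226.5 CPM in Sham 1 to Sham 4 and 207.1, 190.5, 213.3, 230.1 and 212.4 CPM in MI 1 to MI 5. MI 2 was low, the other MI rats lay near or within the sham range, and the log2 fold change was -0.11 (SE 0.063). Stard4 had 36.2, 46.3, 42.4 and 39.2 CPM in Sham 1 to Sham 4 and 34.1, 33.7, 40.5, 42.8 and 39.5 CPM in MI 1 to MI 5. Its groups overlapped, with MI 1 and MI 2 below Sham 1, and the log2 fold change was -0.11 (SE 0.102).

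**Figure D3:**
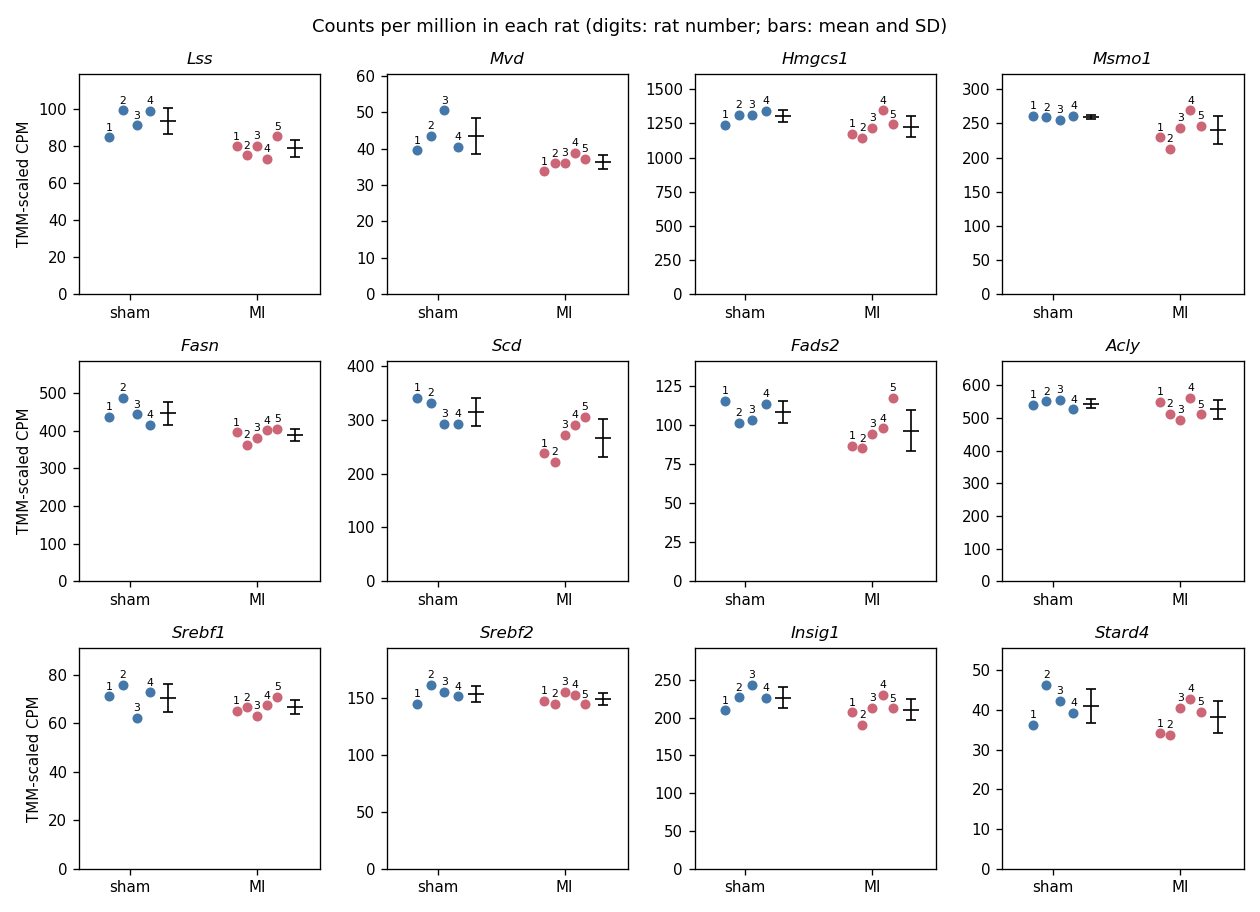
TMM-scaled CPM (linear axes from 0) of 12 genes in each rat, blue for sham and red for MI, with rat numbers beside the points and black marks for mean and SD. Mvd and Fasn do not overlap between groups, Lss overlaps by MI 5 alone, and Srebf1 and Srebf2 overlap widely.

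The sterol and fatty acid pathways were compared by a score for each library, the mean log2 CPM of the pathway's genes centred over the 9 libraries. Sterol scores were -0.022, 0.091, 0.067 and 0.030 in Sham 1 to Sham 4 and -0.048, -0.14, -0.011, 0.028 and 0.0037 in MI 1 to MI 5. Fatty acid scores were 0.060, 0.11, 0.0093 and 0.031 in Sham 1 to Sham 4 and -0.059, -0.16, -0.065, 0.028 and 0.045 in MI 1 to MI 5. Groups overlapped in both pathways, Sham 2 was highest and MI 2 lowest in both, and MI 4 and MI 5 lay within the sham range. The sterol score minus the fatty acid score averaged -0.011 ± 0.058 in sham (SD, n = 4) and 0.0089 ± 0.035 in MI rats (SD, n = 5), a difference within the spread of either group.

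MI 2 had the lowest value of the MI rats in 19 of the 31 genes, and MI 4 the highest in 14. Sham 1 had the lowest of the sham rats in 17 and Sham 2 the highest in 17. Without MI 2 the median log2 fold change was -0.032 over the sterol genes and -0.039 over the fatty acid genes, and without Sham 2 it was -0.037 and -0.041. MI 2 also had the lowest RNA integrity number of the 9, 8.0 against 8.2 to 8.5. Its score of the sensory neuron markers was the lowest, -0.10 against -0.044 to 0.14 in the other MI rats. The summed level of those markers was not lowest in MI 2. It was 38547 CPM there, 38442 and 37880 CPM in MI 1 and MI 3, and 43733 and 40903 CPM in MI 4 and MI 5. The part of RNA integrity and of neuron content in the result was not tested.

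Markers of other cell types were set beside these values. Of 16 Schwann cell and myelin markers, 14 were lower in MI, with a median log2 fold change of -0.12 and none past the threshold; their summed level was 14140 to 17511 CPM in sham and 12183 to 18327 CPM in MI rats. The Schwann cell score was 0.19, 0.11, -0.031 and -0.044 in Sham 1 to Sham 4 and -0.22, -0.044, -0.074, -0.12 and 0.23 in MI 1 to MI 5. Sham 1 and Sham 2 were the highest sham rats, and MI 5 the highest MI rat, in both the Schwann cell and the fatty acid score. MI 1 was lowest in the Schwann cell score and MI 2 in the fatty acid score. Of 12 sensory neuron markers 5 were lower (median 0.016), of 10 satellite glia markers 6 (median -0.026; summed level 5274 to 6351 CPM in sham, 5278 to 6320 CPM in MI) and of 10 macrophage markers 1 (median 0.18; 268.5 to 366.2 CPM in sham, 272.6 to 384.7 CPM in MI). Of 6 adipocyte markers tested 1 was lower (median 0.34; summed level of 10 markers 102.9 to 112.5 CPM in sham, 100.1 to 124.2 CPM in MI). None of these markers passed the threshold, and the part of these cell types in the synthesis genes was not tested.

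**Figure D4:**
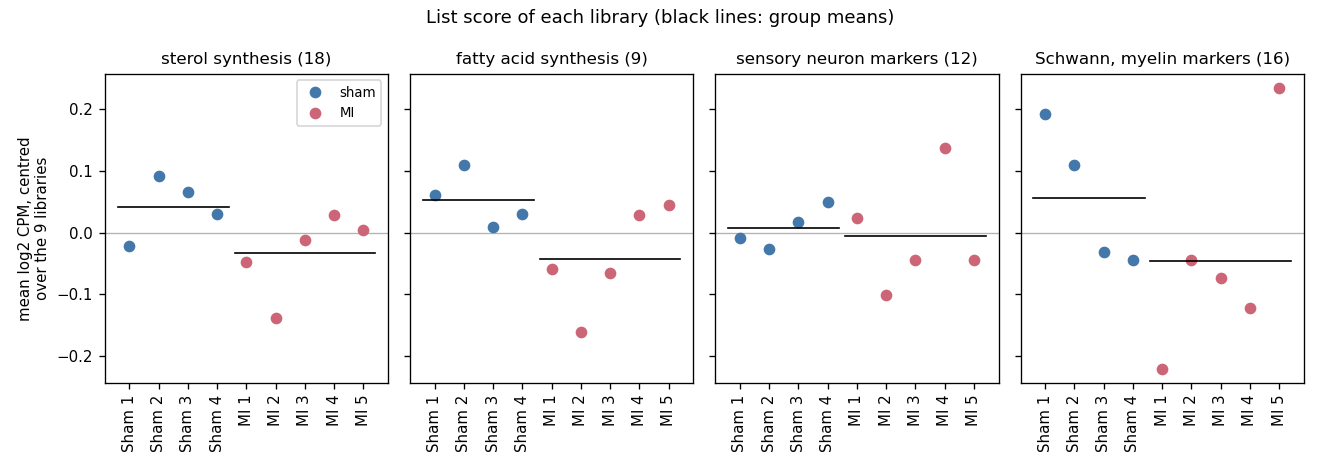
Mean centred log2 CPM of the sterol genes (18), fatty acid genes (9), sensory neuron markers (12) and Schwann cell and myelin markers (16) in each of 9 libraries, blue for sham and red for MI, with black lines for group means. MI 2 is lowest in both synthesis panels, at -0.14 and -0.16, and MI 1 in the Schwann cell panel. MI 5 is the highest MI rat in the fatty acid and Schwann cell panels.

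The spread between rats within a group was described by correlations between genes. The p-values known when the genes were chosen rest in part on the size of that spread, so these correlations are not independent of the choice. After the mean of each group was removed from log2 CPM, the median Pearson r over the 9 libraries was 0.36 for the 465 pairs of members, 0.33 for 153 sterol pairs, 0.42 for 36 fatty acid pairs and 0.36 for the 162 pairs with 1 gene from each pathway. It was 0.080 for all pairs of the 1767 tested genes at or above the median CPM of the members, 126.2. Of the member pairs 33.8% had r over 0.5, against 16.9% of those pairs of abundant genes. These values are a description over 9 libraries whose scaling and depth all genes share. Leaving out 1 library gave medians from 0.25, without MI 2, to 0.43, without Sham 3, for member pairs, and from 0.024 to 0.097 for the abundant genes. For sterol pairs the medians ran from 0.21, without MI 2, to 0.37, and for fatty acid pairs from 0.32, without MI 2, to 0.49.

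The closest pairs, chosen after their values were seen, were Cyp51 with Msmo1 (r = 0.92 over 9 libraries) and Idi1 with Sqle (r = 0.91). Insig1 and Stard4 had the highest medians with the 18 sterol genes, 0.63 each. Srebf2 had a median of 0.41 with the sterol genes and 0.18 with the fatty acid genes, and Srebf1 had 0.14 and 0.39. Pmvk stood apart, with a median of -0.38 with the other sterol genes and -0.40 with the fatty acid genes, and Tm7sf2 had -0.045 with the other sterol genes. All of these are descriptions of the same 9 libraries.

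**Figure D5:**
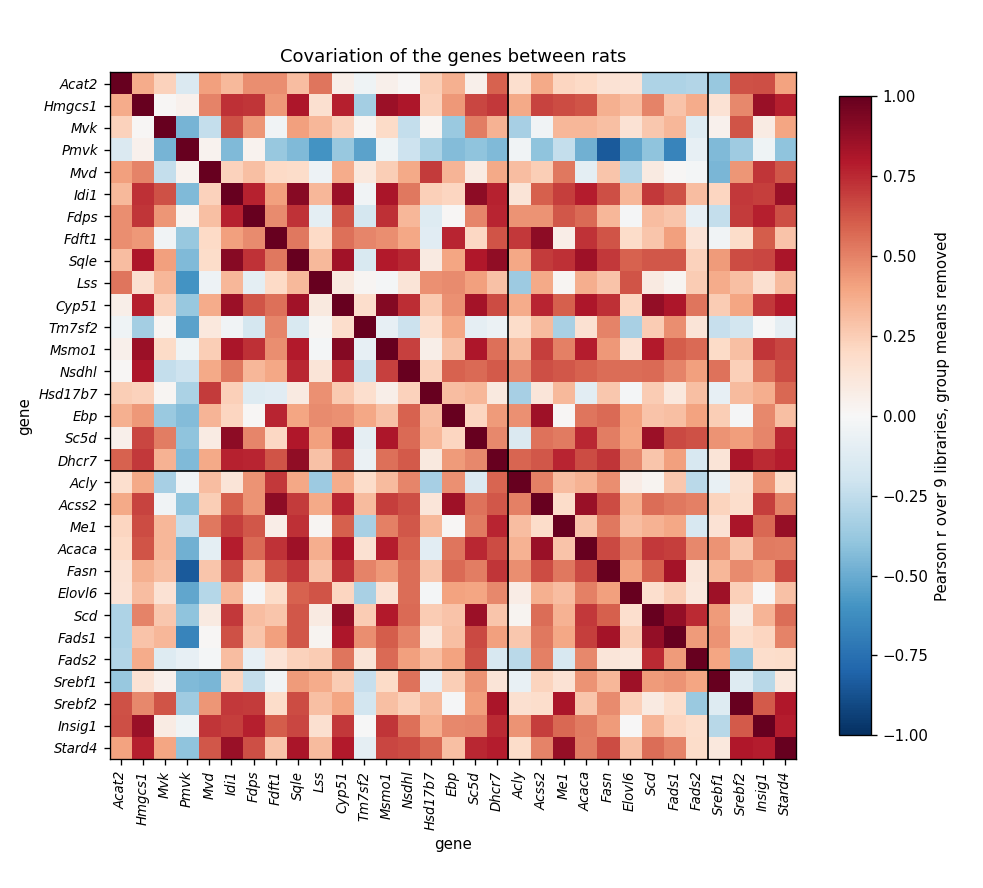
Pearson r between log2 CPM of each pair of the 31 genes over 9 libraries after removal of group means, with black lines between the sterol, fatty acid and regulator genes (red positive, blue negative). Most pairs are positive within and across the pathways, and the row of Pmvk is mostly negative.

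Genes of the same pathways outside the 31 were counted from lists drawn up for the purpose. Of 13 further sterol pathway genes tested, 4 were lower and 9 higher in MI, with a median log2 fold change of 0.035 and none past the threshold. Of 20 further fatty acid genes 8 were lower and 12 higher (median 0.0061), none past the threshold, and Aacs, which turns ketone bodies into acetoacetyl-CoA for lipid synthesis, had the smallest p with a log2 fold change of -0.14 (SE 0.068). Of 14 sterol efflux genes and liver X receptors 6 were lower and 8 higher (median 0.011), none past the threshold, and Ch25h, an oxysterol-making hydroxylase, had 0.42 (SE 0.19) at a low level of 4.10 ± 0.798 CPM in sham (SD, n = 4).

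The spread of the members between rats was modest. Their median tagwise dispersion, edgeR's measure of squared variation beyond counting, was 0.0037, from 0.0019 for Me1 to 0.0086 for Scd. It was 0.0059 over all tested genes, which are not matched for level. The median sham level was 29.5 RPKM over the members and 8.11 RPKM over all tested genes. The p-values known when the genes were chosen also rest in part on dispersion. The coefficient of variation of CPM had a median of 6.12% over the members in sham and 6.74% in MI rats. Msmo1 varied least among sham rats, at 1.09%, and 8.71% among MI rats, and Fads2 varied most among MI rats, at 13.5%. Mean counts ran from 84.6 for Hsd17b7 to 7838 for Hmgcs1, so counting error weighs more on the former.

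The authors' deposited table of the same contrast lists 8000 genes, with p up to 0.712, and holds 25 of the 31. The 6 members it does not list had p of 0.703 or more by the likelihood-ratio test here, and 5 of them had a slightly higher mean in MI, so the listed members are not a tally over all 31. Of these, 24 had a fold of MI over sham below 1 in the authors' deposited table, as did 50.2% of all genes listed. Scd was the 1 member past a false discovery rate of 0.05 in the authors' deposited table, with a fold of 0.844 and a rate of 0.0444, where 0.75% of listed genes passed. That table was made with 1 stated dispersion of 0.006, and the tagwise dispersion of Scd here, 0.0086, was the highest of the members. A fit here with 1 common dispersion gave Scd an adjusted p of 0.227, and edgeR's tagwise likelihood-ratio test gave 0.834. Lss had a fold of 0.840 with a rate of 0.198, Fasn 0.871 with 0.294 and Mvd 0.833 with 0.545 in the authors' deposited table. These values and those above come from the same libraries.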

How the data were processed

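Messenger RNA of thoracic ganglia from 9 rats was sequenced with 75 bp reads. Per the submitters' processing notes and the series' design text, demultiplexing used bcl2fastq 2.16.0.10; cutadapt trimmed the reads, STAR 2.3.0 aligned them to rn6, and genes were counted on the Partek 6.6 annotation. The deposited whole-number counts were rounded by the authors from estimated counts, per the file headers. The deposited RPKM values were computed by the authors; they equal counts per kilobase scaled to the total reads of the library, including reads outside genes. The deposited tables name the MI group CHF. In the authors' deposited edgeR table are linear fold changes (a ratio), p-values, mean log2 CPM and TMM-scaled CPM, and a deposited note states 1 dispersion of 0.006. Deposited alignment percentages and the RNA integrity score were used as checks. Whether counting used strand was not stated, so overlapping and antisense genes cannot be separated.

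The tests ran on these counts in edgeR 4.0.16 (R 4.3.3), with filterByExpr, trimmed mean of M-values (TMM) scaling, tagwise dispersions and the likelihood-ratio test named in the design text, with Benjamini-Hochberg adjustment over 11711 genes and a threshold of 0.05. CPM are TMM-scaled; log2 CPM used a prior count of 2, and each SE is that of the difference between group means on that scale, with the spread pooled over both groups. Other settings tried were DESeq2 1.42.0, the quasi-likelihood test, limma-voom and limma on log2(RPKM + 0.1) and log2(RPKM + 1) (limma 3.58.1), 1 common dispersion, other scaling and filters, the rat number as a block, and leaving out each library. The members, lists and naming rule were chosen with earlier results of these data known. Values in every library are given for the 4 sterol and 3 fatty acid members with the smallest p, the regulators and carrier, and the most abundant member of each pathway; of other lists the gene with the smallest p is named, except 1 that is not reported here. The fit was tested on simulated data. All 31 symbols equal current RefSeq symbols. The RefSeq table is on another assembly than rn6, and its coordinates are not used. Promoter motifs, planned as a description, were not analysed here. No batch is named in the sources used here.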

Additional observations from a re-analysis of the deposited data

How the results depend on the processing

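The count of 2 genes called over all genes became 0 with the quasi-likelihood test, limma-voom and both RPKM fits, 6 with no filter on low counts and 70 with 1 common dispersion, and lay between 2 and 8 when 1 library was left out (8 without Sham 3 or MI 1). Rats 1 to 4 alone gave 6, and the same rats with the replicate block gave 11. The fit of rats 1 to 4 alone was added after seeing the data and is the same fit as the planned one without MI 5. Deviations of same-numbered rats from their group means correlated at -0.13, -0.14, 0.036 and 0.092, and Sham 1 correlated best with MI 5. Removing group means of so few rats constrains these correlations, so they cannot tell whether rats were paired by number. No alternative called any of the 31 members. Their smallest adjusted p was 0.110 by the likelihood-ratio test, for Lss without MI 5. Of 651 alternative fold changes of members, 620 kept their sign, with the fit without MI 5 entering under both of its names. Changes of sign were in Me1, Ebp, Hsd17b7, Sc5d, Fdps, Acaca and Pmvk, all near 0. Of the 651, 0 moved by over 1 SD between rats. Leaving 1 rat out of 4 or 5 cannot shift a group mean that far, so for those fits this 0 does not show stability. The other settings refitted the same libraries, so for them the 0 is no independent check. With 1 library left out, the median log2 fold change lay between -0.083 and -0.032 for sterol genes and between -0.099 and -0.039 for fatty acid genes. RPKM scaled to reads in genes was 1.66 times the deposited value for every member. Depth limited the rarest gene, Hsd17b7, most.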
